A study of Mus musculus with 36 samples.

Results

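The genes described here are those carried on the mouse mitochondrial genome. They were taken as every gene whose symbol begins with mt- in the deposited count files, a rule that uses no measured value. This gave 37 of the 46078 genes listed: 13 protein genes, 2 rRNA genes (mt-Rnr1 and mt-Rnr2, the RNAs of the small and the large mitoribosomal subunit) and 22 tRNA genes.

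RNA was measured in RM-1-BM cells, a mouse prostate cancer line, and in RAW264.7 cells, a mouse macrophage line. The cancer cells carried either SPOP with the F133V substitution or an empty vector. SPOP is the substrate-binding adaptor of a cullin ubiquitin ligase and is recurrently mutated in prostate cancer. Each kind of cancer cell was grown alone or with RAW264.7 cells in coculture, and was treated with olaparib, an inhibitor of poly(ADP-ribose) polymerases, or with DMSO. The labels give no dose or time. That makes 8 groups of cancer cells (24 libraries). The macrophages form 4 groups (12 libraries), split by whether their partner was a vector or an F133V cancer cell and by olaparib or DMSO. All macrophages came from cocultures, so coculture and growth alone can be compared in the cancer cells only. All of the cancer cells were transduced, the controls with the empty vector, and the labels do not say whether a line is a pool or a clone. They also leave unsaid if the 3 libraries in each group are separate cultures, so p-values measure only the spread between libraries, which may be technical.

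Animal mitochondrial DNA is a small circle that is transcribed from both strands into long RNAs spanning many genes. The tRNAs lie between the other genes and are cut out, which releases the rRNAs and the messenger RNAs. Of the protein genes, mt-Nd6 alone lies on the strand opposite the other 12 and is read from the other long transcript. All 13 encode subunits of the respiratory chain or of ATP synthase: 7 in complex I (mt-Nd1 to mt-Nd6 and mt-Nd4l), mt-Cytb in complex III, mt-Co1 to mt-Co3 in complex IV, and mt-Atp6 and mt-Atp8 in ATP synthase. Every other protein that mitochondria need is made from nuclear genes, among them the RNA polymerase Polrmt, its partner Tfam, and the proteins of the mitoribosome.

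The counts do not follow these genes equally well, and several of the genes have near-exact copies in the nuclear genome. Levels are given as CPM (a gene's count relative to the library total, on the usual fixed scale) after TMM scaling, within the cancer cells or within the macrophages, and as CPM per kilobase (kb) of gene wherever 2 genes are compared. Over the 36 libraries, 7 protein genes had median counts of 4671 to 362318, and the other 6 had median counts of 6.5 to 469.5. Per kb, mt-Co1 had a median of 6086 CPM, mt-Cytb 3988, mt-Nd1 1885, mt-Nd2 1384, mt-Nd4 1266, mt-Nd5 1007 and mt-Nd6 243. The 6 low genes stood at 19.1 CPM per kb for mt-Co2, 9.34 for mt-Co3, 8.70 for mt-Atp6, 5.11 for mt-Nd4l, 1.54 for mt-Nd3 and 0.888 for mt-Atp8. Between mt-Co1 and its neighbour mt-Co2, which are made from the same long transcript, the counted level thus dropped from 6086 to 19.1 CPM per kb.

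Of all 50-base stretches of mt-Co2, 100% also occurred in another annotated mouse transcript (GENCODE M21, build GRCm38), as did 99.9% of those of mt-Co3, 99.5% of mt-Atp6, 98.8% of mt-Nd4l and 98.0% of mt-Nd3. The share was 62.2% for mt-Nd4, 51.1% for mt-Co1, 8.19% for mt-Nd2, 7.61% for mt-Nd5 and 1.04% for mt-Rnr2. It was 0 for mt-Rnr1, mt-Nd1, mt-Nd6, mt-Cytb and mt-Atp8. The copies that share most with mt-Co1, mt-Co2, mt-Atp6, mt-Co3, mt-Nd3, mt-Nd4l and mt-Nd4 are 7 unprocessed pseudogenes in a row on the minus strand of chromosome 1, between positions 24611535 and 24616197 of GRCm38, in the order the genes have on the mitochondrial genome. Gm28661 matched mt-Co2 over all 681 of its bases, Gm10925 matched mt-Atp6 over 678, Gm28437 matched mt-Co3 over 783, Gm10222 matched mt-Nd4l over 294 and Gm28439 matched mt-Nd4 over 876. Gm29216 covers 492 bases of mt-Co1, of which 6 differ, so part of the 765 shared stretches of mt-Co1 lies in other transcripts. The stretches of mt-Nd2, mt-Nd5 and mt-Rnr2 were shared most with Gm13339, Gm4076 and Gm20594, which are not among the 7. Between 5.48% and 7.18% of reads per library did not align to a single place and were counted to no gene.

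The following stretches, the first 120 bases of 2 genes and of their copies (mt-Co2 at chrM:7013-7132 and mt-Nd3 at chrM:9459-9578, plus strand), show how little separates a copy from its gene. Capitals mark bases that differ: there is none between mt-Co2 and Gm28661, and mt-Nd3 and Gm28438 differ in their 345 aligned bases at T3C alone, counted from the first base of the gene.
mt-Co2: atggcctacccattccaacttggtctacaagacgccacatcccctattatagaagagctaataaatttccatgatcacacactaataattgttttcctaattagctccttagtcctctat
Gm28661: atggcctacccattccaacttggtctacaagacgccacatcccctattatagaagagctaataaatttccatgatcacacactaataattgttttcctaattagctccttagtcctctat
mt-Nd3: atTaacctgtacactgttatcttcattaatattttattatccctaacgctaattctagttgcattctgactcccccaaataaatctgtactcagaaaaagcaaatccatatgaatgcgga
Gm28438: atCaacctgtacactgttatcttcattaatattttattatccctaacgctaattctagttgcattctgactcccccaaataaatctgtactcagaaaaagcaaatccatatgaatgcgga
A read from these stretches that covers no capital letter matches both places equally well. The levels of the 5 genes with a share of 97.99% or more are therefore no measure of how much of the RNA was present. The plot of counted level against shared sequence sets them apart at its lower right. mt-Atp8 shared no stretch with another annotated transcript, and was low as well (6.5 counts at the median). Only annotated transcripts were searched. On chromosome 1, the bases between Gm10925 (ending at 24614651) and Gm28661 (starting at 24614885) were not compared with mt-Atp8. Whether mt-Atp8 has a copy there was not tested. mt-Atp8 overlaps mt-Atp6 by 43 bases of its 204.

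**Figure D1:**
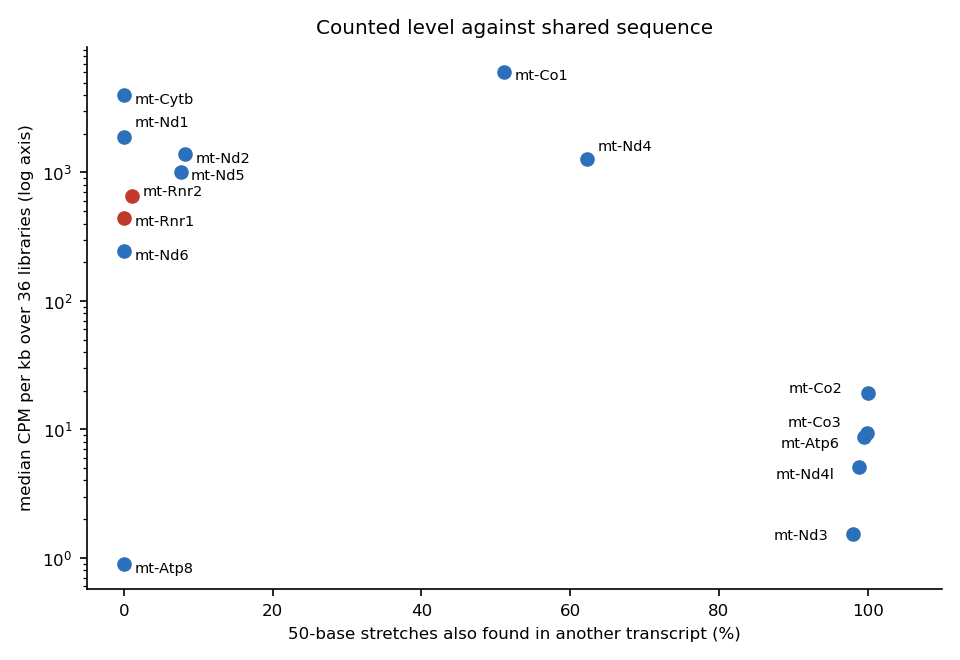
Each point is a protein gene (blue) or rRNA gene (red), at the percentage of its 50-base stretches also found in another mouse transcript and its median CPM per kb over 36 libraries on a log axis. The 5 genes at 97.99% or more lie below 20 CPM per kb, and mt-Co1 and mt-Nd4, shared in part, lie above 1000.

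The gene on the other strand, mt-Nd6 (chrM:13552-14070, minus strand) meets mt-Nd5 (chrM:11742-13565, plus strand) end to end, and the last 14 bases of each lie over the other. The last 60 bases of both genes are shown on their own strands, with the overlap in capitals.
mt-Nd5 end: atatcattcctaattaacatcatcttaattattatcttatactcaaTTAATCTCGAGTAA
mt-Nd6 end: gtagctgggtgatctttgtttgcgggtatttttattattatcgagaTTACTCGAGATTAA
No source used here gives the strand setting of the counting. Without strand, reads of mt-Nd6 and reads of the opposite strand of the same stretch cannot be told apart.

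The tRNA genes were almost invisible. They are 59 to 75 bases long, 14 on the plus and 8 on the minus strand, and 10 of the 22 had 0 counts in all 36 libraries. The 8 that have a gene of the same strand within 5 bases on both sides were all among these 10. Of the other 14, mt-Tf and mt-Td were at 0 throughout and 12 had a count. The highest medians were 76 counts for mt-Tp (tRNA for proline), 66.5 for mt-Tw (tryptophan), 25.5 for mt-Tq (glutamine), 13.5 for mt-Tt (threonine) and 11 for mt-Te (glutamate). All tRNA genes together held 4.83 ± 0.494 (F133V coculture, DMSO) to 15.5 ± 1.30 (vector alone, olaparib) CPM, unscaled, as cancer group means ± SD (n = 3), and 3.15 ± 0.185 to 4.86 ± 0.705 in the macrophages. 9 tRNA genes passed the filter on low counts in the cancer cells and 5 in the macrophages.

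Shown whole are 2 neighbours on opposite strands, mt-Tt (chrM:15289-15355, plus strand) and mt-Tp (chrM:15356-15422, minus strand), which had counts and were called in comparisons given further on.
mt-Tt: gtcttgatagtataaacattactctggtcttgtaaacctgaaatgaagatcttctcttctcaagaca
mt-Tp: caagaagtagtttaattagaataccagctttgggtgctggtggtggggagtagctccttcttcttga

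Tests used edgeR's quasi-likelihood test on all genes of a cell type that passed the filter: 15962 in the cancer cells, 24 of them mitochondrial, and 14262 in the macrophages, 19 of them mitochondrial. Genes were called when the adjusted p (Benjamini-Hochberg) was under 0.05. Library sizes were 30292309 to 43062440 gene counts. The spread within groups was small (common biological coefficient of variation 2.61% in cancer cells, 1.81% in macrophages), so small differences passed the test, and each count of called members is set beside the percentage of all genes called. The labels of the cells fit their markers: the sum of 14 macrophage markers was 12250 to 14480 CPM in the macrophages and 11.1 to 22.7 in the cancer cells, and that of 10 cancer cell markers was 1749 to 9467 CPM in the cancer cells and 2.58 to 5.19 in the macrophages. Of these 10, 7 passed the filter in the cancer cells. Their sum was 2258 to 2286 CPM in F133V cells alone with DMSO and 8140 to 8305 in the matching vector cells. The mouse Spop count does not report the construct: it was 103 to 106 CPM in F133V cells alone with DMSO and 122 to 127 in the matching vector cells. Libraries 1 and 3 of the F133V cells alone with olaparib stand apart from library 2 of their group. They held 57 and 78 counts of mt-Atp8 and 18 counts each of mt-Ti, against 1 and 0 in library 2. Such counts were not particular to them. Library 1 of the vector cells alone with olaparib held 53 and 17, and library 2 of the vector coculture with DMSO 54 and 6. The F133V libraries 1 and 3 were picked for leaving out by these same counts of 2 members, which keeps 1 library of their group. Libraries 1 and 2 of the vector cells alone with DMSO hold traces of macrophage transcripts: Lyz2 was at 3.38, 4.36 and 0.700 CPM in the 3 libraries, and the marker sum at 13.8 to 22.7. The marker sum was 16.9 to 19.2 CPM in the vector cells alone with olaparib and 11.1 to 14.5 in the other 6 cancer groups. Counts of called members that change by over 1.5 times without these libraries are given both ways.

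Both rRNAs were much more abundant in F133V than in vector cancer cells, while the protein genes were lower. mt-Rnr2, the 16S rRNA, stood in the vector cells alone with DMSO at 934, 949 and 1099.6 CPM and in the F133V cells at 4137, 4156 and 4302 CPM. In coculture the vector cells had 982, 1095 and 1036 CPM and the F133V cells 5102, 4801 and 5153. The groups were far apart in both settings. mt-Rnr2 was 4.22-fold higher in F133V cells alone (log2 fold change 2.08 ± 0.05 SE, adjusted p = 7.8e-30) and 4.84-fold higher in coculture (2.27 ± 0.05, adjusted p = 1.9e-31).

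mt-Rnr1, the 12S rRNA, changed the same way and by less. It stood at 428, 425 and 482 CPM in vector cells alone with DMSO and at 934, 941 and 987 CPM in F133V cells. In coculture the values were 425, 402 and 409.6 CPM in vector cells and 1072, 897 and 954 in F133V cells. No F133V library came near a vector library. The log2 fold change was 1.10 ± 0.06 alone (adjusted p = 5.1e-19) and 1.24 ± 0.06 in coculture (adjusted p = 5.6e-21). Under every alternative tried, both rRNAs were called higher in F133V cells with DMSO, with log2 fold changes of 0.98 to 1.50 (mt-Rnr1) and 1.93 to 2.48 (mt-Rnr2) alone, and of 0.99 to 1.95 and 2.02 to 2.98 in coculture.

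With olaparib, the rRNA difference shrank. In cells alone, mt-Rnr2 was 1098, 1057 and 1054 CPM in vector and 2847, 2368 and 3022 CPM in F133V cells (log2 fold change 1.36 ± 0.05), and mt-Rnr1 was 470.1, 471 and 446 and 699, 639.5 and 802 CPM (0.63 ± 0.06). In coculture, mt-Rnr2 was 1032, 1008 and 1053 CPM in vector and 1233, 1202 and 1269 CPM in F133V cells. That is 1.20-fold (0.26 ± 0.05, adjusted p = 3.2e-05). mt-Rnr1 was 445, 413 and 415 CPM in vector and 421, 448 and 522 in F133V cells, which overlap, and its log2 fold change of 0.13 ± 0.06 did not pass the test (adjusted p = 0.068).

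**Figure D2:**
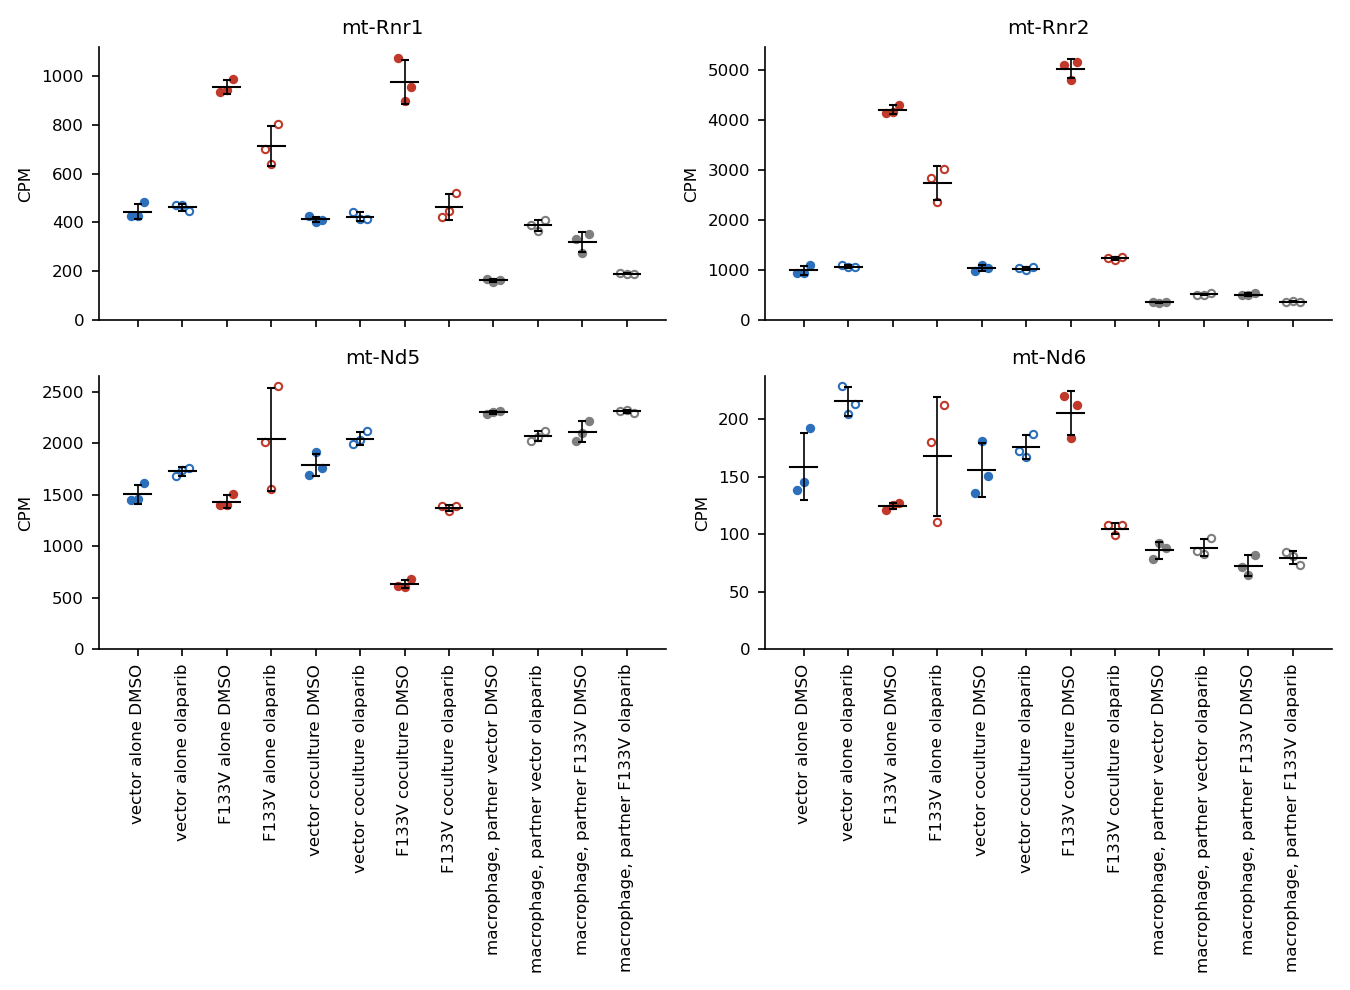
CPM of mt-Rnr1, mt-Rnr2, mt-Nd5 and mt-Nd6 in each library (dots) with the mean and SD of the 3 libraries (black bars), for vector cancer cells (blue), F133V cancer cells (red) and macrophages (grey), filled for DMSO and open for olaparib. Cancer cells and macrophages are scaled separately. Both rRNAs are highest in F133V cells with DMSO, and in F133V cells in coculture with DMSO mt-Nd5 is at its lowest (604 to 681 CPM).

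Other RNAs that end without a long poly(A) tail were higher in the same libraries. Of 9 such nuclear RNAs listed, 5 passed the filter in the cancer cells, and in F133V against vector cells with DMSO all 5 were higher alone and 4 in coculture. Over all genes, 33.7% were called higher alone and 37.4% in coculture. Rn7sk, which holds back the elongation factor P-TEFb, was at 9.02, 9.66 and 8.32 CPM in vector cells alone and at 188, 189 and 187 CPM in F133V cells, a log2 fold change of 4.38 ± 0.05. Rpph1, the RNA of nuclear RNase P, was at 4.14, 4.38 and 3.86 CPM in vector cells and 64.8, 67.3 and 62.2 CPM in F133V cells (3.97 ± 0.07). Rmrp, the RNA of RNase MRP, was at 1.82, 2.02 and 1.66 and 4.68, 5.52 and 4.75 CPM (1.44 ± 0.15). In coculture the log2 fold changes of Rn7sk, Rpph1 and Rmrp were 4.56, 3.90 and 1.58. Summed snRNA genes were at 76.9 ± 9.02 unscaled CPM in F133V cells alone with DMSO and at 26.4 ± 3.05 in vector cells, and summed snoRNA genes at 125 ± 3.29 and 125 ± 1.49 (SD, n = 3). No source used here says whether libraries were selected for poly(A) tails or depleted of rRNA. The part of such a step in the rRNA result was not tested.

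**Figure D3:**
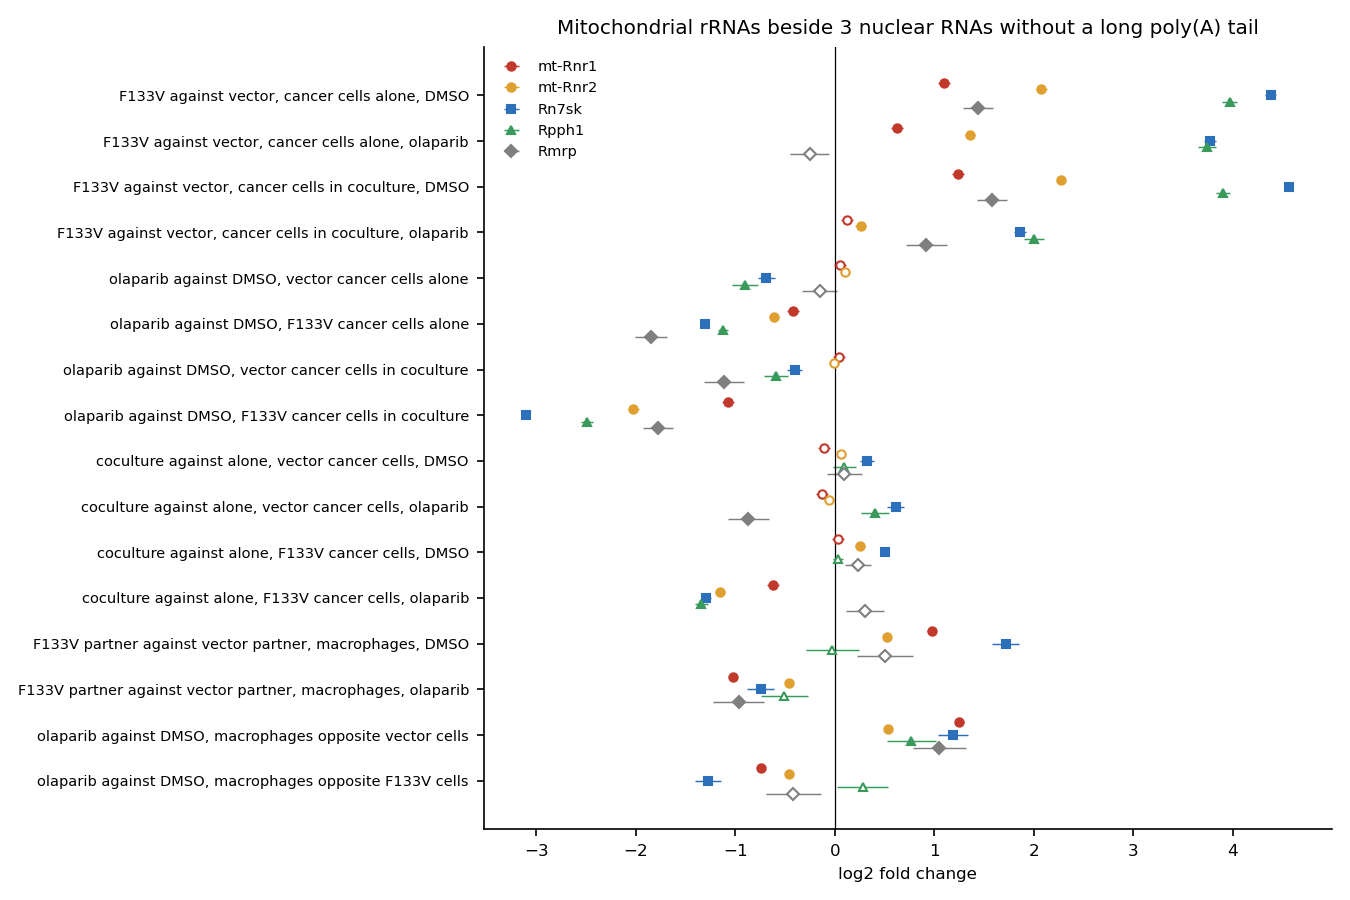
Log2 fold changes (points) with SE (bars) of mt-Rnr1, mt-Rnr2 and the nuclear RNAs Rn7sk, Rpph1 and Rmrp in 16 comparisons, filled where called at an adjusted p under 0.05 and open otherwise. Both rRNAs and Rn7sk lie right of 0 in F133V against vector cancer cells with DMSO and left of 0 for olaparib in F133V cancer cells.

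Among the 24 tested members, F133V against vector cells alone with DMSO had 2 called higher (the rRNAs) and 14 called lower. Across all genes the calls were 67.7%, with 33.7% higher and 34% lower. Of the 13 protein genes, 11 were called lower and 0 higher, with a median log2 fold change of -0.41, against 0.0013 over all genes. Here and below, counts and medians over the protein genes include the low genes. Among these are the genes with near-exact nuclear copies, whose counts are no measure of their RNA. Without the 2 vector libraries that hold macrophage transcripts, 2 members were called higher and 13 lower, and the protein gene median was -0.63. In bulk RNA, fewer cells with an RNA and less of it per cell cannot be told apart. The fall was unequal among the genes. mt-Nd1, next to the rRNA genes, and mt-Nd2, both of complex I, had log2 fold changes of -0.71 ± 0.07 and -0.67 ± 0.09. mt-Co1, the catalytic subunit of complex IV, and mt-Cytb of complex III fell by less, with -0.36 ± 0.04 and -0.37 ± 0.05. mt-Nd4 had -0.21 ± 0.05 (adjusted p = 7e-04), and mt-Nd5 did not pass the test at -0.07 ± 0.08 (adjusted p = 0.44).

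mt-Nd6 on the other strand was at 138, 145 and 192 CPM in vector cells alone with DMSO and 121, 125 and 127 CPM in F133V cells. All 3 F133V libraries lay below the vector libraries, the third of which was well above the other 2. The log2 fold change of -0.35 ± 0.12 was called (adjusted p = 0.01), but not by DESeq2 (adjusted p = 0.06) and not without the third vector library (-0.19, adjusted p = 0.18).

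In coculture with DMSO the protein genes were further apart, and mt-Nd5 and mt-Nd6 moved in opposite directions. Of the 24 members, 4 were called higher and 13 lower in F133V cells, and of all genes tested 79.5% were called, 37.4% higher and 42% lower. The protein genes were 9 lower and 1 higher, with a median of -0.78 against -0.059 over all genes. mt-Nd5, a proton-pumping subunit of complex I, was at 1696, 1911 and 1757 CPM in vector cells and 617, 604 and 681 CPM in F133V cells. This was 2.82-fold lower, with a log2 fold change of -1.50 ± 0.08 and an adjusted p of 1.1e-19, and the groups did not overlap. mt-Nd6, another membrane subunit of complex I, was at 136, 181 and 151 CPM in vector cells and 220.4, 184 and 212 CPM in F133V cells. Its lowest F133V library was only just above its highest vector library, and the log2 fold change was 0.39 ± 0.12 (adjusted p = 0.0025). Scaling by library size alone moved the log2 fold changes of the rRNAs and well-counted protein genes except mt-Nd6 by a median of -0.25. With that scaling mt-Nd6 had 0.14 and was not called (adjusted p = 0.27).

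The other well-counted genes were all lower in F133V cells in coculture with DMSO, at log2 fold changes of -1.10 ± 0.07 for mt-Nd1, -1.06 ± 0.09 for mt-Nd2, -0.82 ± 0.05 for mt-Nd4, -0.63 ± 0.05 for mt-Cytb and -0.48 ± 0.04 for mt-Co1. Of the genes with nuclear copies, mt-Co2 (-0.40), mt-Co3 (-1.10) and mt-Nd3 (-1.40) were called lower, and mt-Atp6 (-0.13), mt-Nd4l (-0.37) and the scarcely counted mt-Atp8 (-0.78) did not pass the test. Among the copies themselves, Gm28437 (-1.07) and Gm28661 (-0.57) were lower in coculture and 0 of 6 tested were called alone. Of the 9 tRNA genes tested, mt-Tt was higher (1.75 ± 0.44) and mt-Tq, mt-Tm, mt-Tw and mt-Tp were lower (-1.54 to -0.48).

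**Figure D4:**
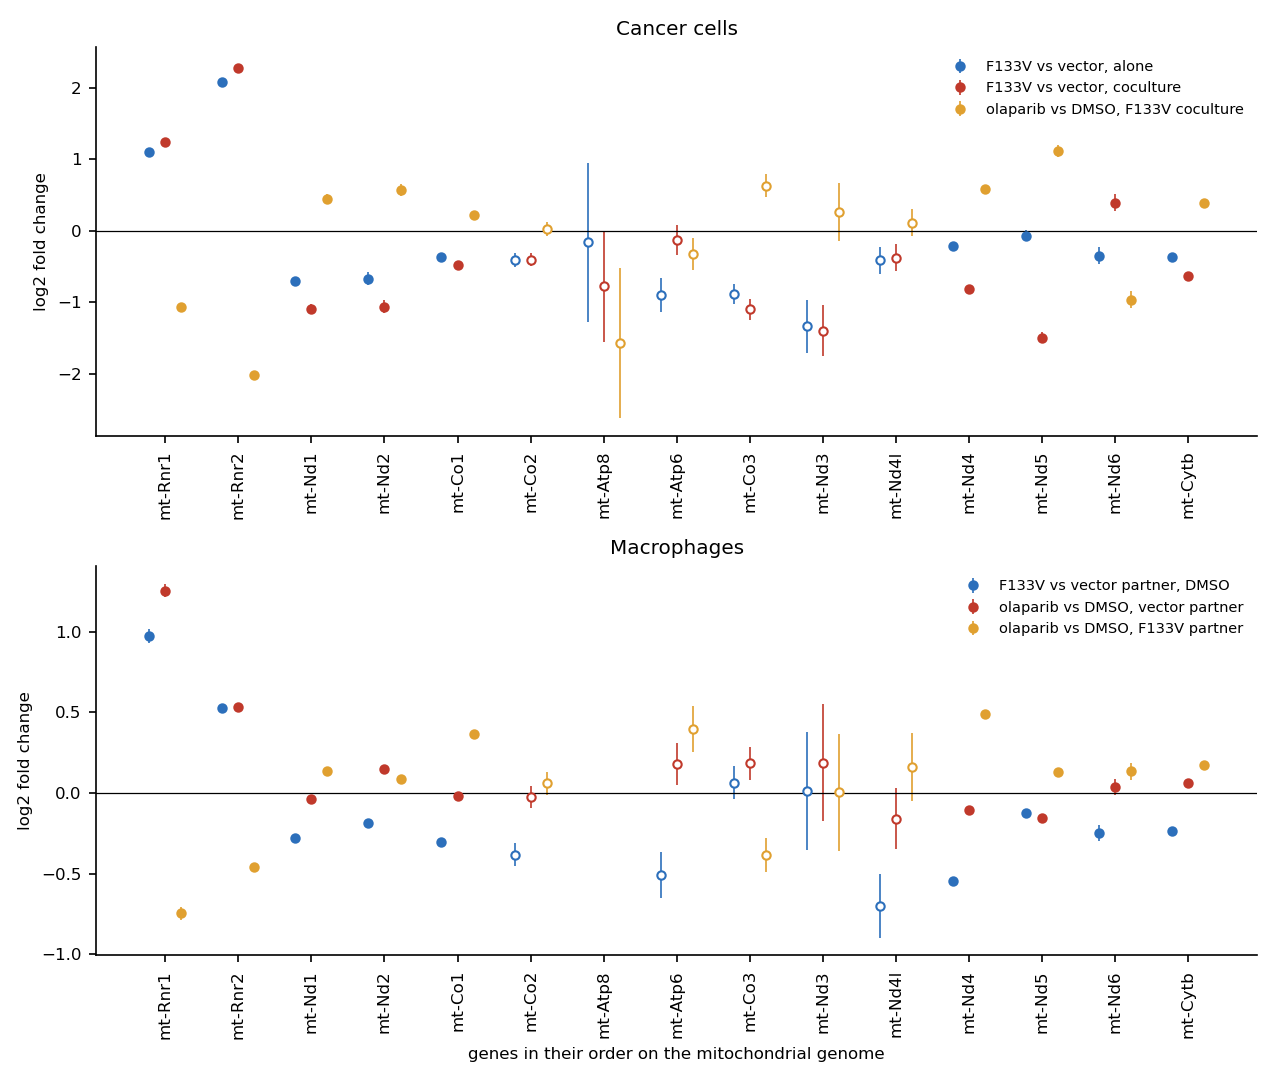
Log2 fold changes (points) with SE (bars) of the rRNA and protein genes in their order on the mitochondrial genome, in cancer cells (top: F133V against vector with DMSO, alone blue and in coculture red, and olaparib in F133V coculture orange) and macrophages (bottom: F133V against vector partner blue, olaparib opposite vector cells red and opposite F133V cells orange), filled for genes with a median count of 1000 or more and open for the others, with mt-Atp8 not tested in macrophages. In cancer cells mt-Nd5 is near 0 alone and at -1.50 in coculture, and the rRNAs, mt-Nd5 and mt-Nd6 lie on opposite sides of 0 for F133V in coculture and for olaparib in those cells, which share the same DMSO libraries.

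Levels of the 5 remaining well-counted genes are given here for all cancer groups as CPM, mean ± SD (n = 3), in the order vector alone, F133V alone, vector coculture and F133V coculture. mt-Co1 stood with DMSO at 8987 ± 291, 6982 ± 274, 8864 ± 149 and 6368 ± 177, and with olaparib at 9773 ± 179.8, 8648 ± 914, 10279.7 ± 207 and 7445 ± 105. mt-Cytb stood with DMSO at 5105 ± 123, 3940.2 ± 162, 4879 ± 82.8 and 3155 ± 71.9, and with olaparib at 5738 ± 143, 4868 ± 738, 5738 ± 118 and 4138 ± 76.8. These 2 genes had the highest counted levels per kb, and for both the F133V coculture with DMSO is the lowest of the 8 groups. mt-Nd1 stood with DMSO at 2729.6 ± 172, 1668 ± 95.7, 2869.9 ± 97.1 and 1343 ± 60.5, and with olaparib at 3194 ± 20.7, 2232 ± 457, 3385 ± 124 and 1829.7 ± 47.9. mt-Nd2 stood with DMSO at 2137 ± 174, 1344 ± 63.9, 2135 ± 172 and 1024 ± 84.4, and with olaparib at 2589 ± 32.5, 1977 ± 538, 2481 ± 102 and 1519 ± 33.1. mt-Nd4 stood with DMSO at 1772 ± 54.7, 1534 ± 59.7, 1808 ± 38.6 and 1027 ± 35.2, and with olaparib at 2035 ± 60.9, 1987 ± 334, 2115 ± 41.6 and 1535 ± 32.4. The 3 complex I genes also had their lowest mean in F133V coculture with DMSO, and all 5 had their widest spread in F133V cells alone with olaparib, the group with the 2 libraries that stand apart. Group means of the low genes ran from 9.90 to 15.3 CPM for mt-Co2, 3.61 to 9.63 for mt-Co3, 3.20 to 9.59 for mt-Atp6, 1.14 to 2.12 for mt-Nd4l, 0.269 to 0.860 for mt-Nd3 and 0.108 to 1.30 for mt-Atp8.

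In F133V cancer cells in coculture, both rRNAs and mt-Nd6 were lower and mt-Nd5 was higher with olaparib than with DMSO. Of the 24 members, 7 were called higher and 4 lower, against 76.3% called among all genes (39.3% higher, 37% lower). mt-Rnr2 was 4.07-fold lower with olaparib than with DMSO (-2.02 ± 0.05, adjusted p = 1e-29) and mt-Rnr1 2.10-fold lower (-1.07 ± 0.06). mt-Nd5 was at 1386, 1342 and 1394 CPM with olaparib, against 617, 604 and 681 with DMSO. This is 2.17-fold higher (1.12 ± 0.08, adjusted p = 9.7e-16). mt-Nd6 was at 108, 99.2 and 108 CPM with olaparib, against 220.4, 184 and 212 with DMSO, and so lower (-0.97 ± 0.12, adjusted p = 2.8e-09). The groups do not overlap for either gene. mt-Nd4 (0.58), mt-Nd2 (0.57), mt-Nd1 (0.45), mt-Cytb (0.39), mt-Co1 (0.23) and mt-Co3 (0.63) were higher, and mt-Tt was lower (-1.36). With the low genes included, the protein genes had a median of 0.27 against 0.025 over all genes. mt-Atp8, which had the lowest value of the protein genes here, had 9, 8 and 14 counts with DMSO and 9, 2 and 2 with olaparib, too few to pass the test (-1.57 ± 1.06). In these libraries Rn7sk had a log2 fold change of -3.10 and Rpph1 of -2.49, and Rn7sk was at 31.6, 29.4 and 32.4 CPM with olaparib. This comparison shares its DMSO libraries with that of F133V against vector in coculture, so opposite signs in the 2 comparisons are not independent of each other.

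In vector cells in coculture, the rRNAs, mt-Nd5 and mt-Nd6 did not pass the test for olaparib. mt-Rnr1 had a log2 fold change of 0.04 ± 0.06 and mt-Rnr2 of -0.01 ± 0.05, with adjusted p of 0.7 and 0.94. The 4 members called were higher: mt-Nd1 (0.24), mt-Nd4 (0.23), mt-Cytb (0.23) and mt-Co1 (0.21), where 23.6% of all genes were called (12.6% higher, 10.9% lower). mt-Nd5 was at 1989, 2026 and 2119 CPM with olaparib, all above the DMSO libraries, and did not pass the test (0.19 ± 0.08, adjusted p = 0.068). mt-Nd6 was at 173, 167 and 187 CPM, which overlaps the DMSO values (0.17 ± 0.12).

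In vector cells alone, 15 members were called higher with olaparib and 0 lower, where 30.4% of all genes were called (15.3% higher, 15.1% lower). Of the protein genes, 11 were called higher, with a median of 0.23 over all 13. The well-counted ones moved little, from 0.12 for mt-Co1 to 0.44 for mt-Nd6, and the rRNAs did not pass the test (0.06 ± 0.06 and 0.11 ± 0.05). DESeq2 called 6 members here. Leaving out DMSO library 1, DMSO library 2 or olaparib library 1 singly gave 9, 8 and 9. Leaving out both DMSO libraries that hold macrophage transcripts kept DMSO library 3 alone. In that library the protein genes took more of the gene counts (2.48%) than in libraries 1 and 2 (2.30% and 2.32%). The log2 fold changes were then smaller, for instance 0.12 for mt-Nd1, 0.067 for mt-Co1 and 0.17 for mt-Nd6.

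In F133V cells alone, olaparib gave 16 members called higher and 2 lower (36.2% of all genes called, 18.2% higher and 17.9% lower). The 2 rRNAs were the lower ones, at -0.42 ± 0.06 and -0.61 ± 0.05. All 13 protein genes were called higher with a median of 0.51, the 6 low genes included. mt-Nd5 was at 2015, 1554 and 2552 CPM with olaparib against 1396, 1404 and 1502 with DMSO, and mt-Nd6 at 180.3, 111 and 212 against 121, 125 and 127. Library 2 was the lowest with olaparib for both genes. Without libraries 1 and 3, 5 members were called higher (mt-Nd1 0.12, mt-Co1 0.17, mt-Nd4 0.16, mt-Cytb 0.14 and the tRNA gene mt-Tq) and the 2 rRNAs lower (-0.58 and -0.83), and mt-Nd6 had -0.17. In this comparison the 6 copies on chromosome 1 that were tested were called higher as well, at 0.85 to 1.98. In F133V against vector cells alone with olaparib, 3 members were called higher and 12 lower (67.4% of all genes, 34.3% higher and 33.2% lower). mt-Nd5 was among the higher (0.24), but without libraries 1 and 3 it was lower (-0.15), and then 2 members were called higher and 15 lower. In coculture with olaparib, F133V cells had 1 member called higher (mt-Rnr2) and 13 lower (60% of all genes, 28.8% higher and 31.2% lower), with protein genes 11 lower and 0 higher and a median of -0.57. There mt-Nd6 was lower as well (-0.74), beside mt-Nd1 (-0.89) and mt-Nd5 (-0.57).

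Coculture changed few mitochondrial genes of vector cells with DMSO: mt-Nd5 was higher (0.25 ± 0.08) and mt-Tp lower (-0.52 ± 0.14), and 0 other members were called, where 42% of all genes were (23.4% higher, 18.6% lower). DESeq2 called 1 member. The call of mt-Nd5 was lost with DESeq2 (adjusted p = 0.093), without the second coculture library (0.20, adjusted p = 0.064) and without the 2 libraries grown alone that hold macrophage transcripts (0.15, adjusted p = 0.36), and without the third library grown alone 4 members were called. With olaparib 1 member was higher and 9 lower (44.1% of all genes called, 25.5% higher and 18.5% lower), mt-Nd5 again being the higher one (0.24). DESeq2 called 5 members there, and leaving out library 1 grown alone, coculture library 1 or coculture library 2 gave 5, 5 and 4. In F133V cells with DMSO, 4 members were called higher and 7 lower (70.3% of all genes, 35.6% higher and 34.8% lower), and scaling by library size alone made that 2 higher and 10 lower. mt-Nd5 had -1.18 ± 0.08, mt-Nd4 -0.58 ± 0.05 and mt-Nd6 0.72 ± 0.12. mt-Rnr2 rose by 0.26, or by 0.05 with scaling by library size alone (adjusted p = 0.41), and mt-Rnr1 had 0.03 ± 0.06. With olaparib 0 were higher and 16 lower (53.2% of all genes called, 26.7% higher and 26.5% lower), and 0 and 6 without the 2 libraries that stand apart. The rRNAs were among these 16, at -0.62 and -1.15.

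Responses were also compared with each other, as interactions in the same fit. The interaction of genotype and olaparib had 6 members called positive and 4 negative in coculture (67.4% of all genes, 35.4% positive and 32% negative) and 3 and 2 alone (24.2%, 13.3% and 10.9%). The olaparib response of mt-Rnr2 differed by -2.01 (F133V minus vector cells, log2) in coculture and by -0.72 alone. That of mt-Nd5 was higher by 0.92 in coculture, and that of mt-Nd6 differed by -1.14. The interaction of genotype and coculture with DMSO had 4 positive and 5 negative members (62.7% of all genes, 30.2% and 32.5%), with mt-Nd5 at -1.43 and mt-Nd6 at 0.74. The interaction of coculture and olaparib in F133V cells had 2 positive and 8 negative members (64.5% of all genes, 32.9% and 31.5%), with mt-Rnr2 at -1.41 and mt-Nd6 at -1.40.

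The same contrasts were seen in sums of counts, taken without scaling. Such sums hold counted reads only, and 6 of the protein genes add little to them (median counts of 6.5 to 469.5). What reads aligned to several places took from mt-Co1 and mt-Nd4, which are shared in part, was not tested. The 13 protein genes took 2.37 ± 0.0975% of gene counts in vector cells alone with DMSO (SD, n = 3) and 1.69 ± 0.0717% in F133V cells. In coculture with DMSO they took 2.30 ± 0.0589% in vector and 1.18 ± 0.0520% in F133V cells. With olaparib the shares in coculture were 2.68 ± 0.0735% and 1.78 ± 0.0357%. For every 100 counts in protein genes there were 6.41 ± 0.279 rRNA counts in vector cells alone with DMSO and 30.2 ± 0.546 in F133V cells. In coculture with DMSO there were 6.44 ± 0.109 and 43.5 ± 1.88, and with olaparib 5.55 ± 0.192 and 9.45 ± 0.402. Within the protein genes, mt-Nd6 took 0.691 ± 0.0913% in vector and 1.49 ± 0.134% in F133V cells in coculture with DMSO, and 0.584 ± 0.0175% in the latter with olaparib. mt-Nd5 took 7.93 ± 0.375%, 4.60 ± 0.142% and 7.65 ± 0.0438% in the same groups. None of these pairs overlapped. An exact two-sided permutation test of 3 against 3 libraries cannot go below p = 0.1, which was the p of 73 of the 102 such comparisons of 6 sums made, with an adjusted p of 0.14.

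**Figure D5:**
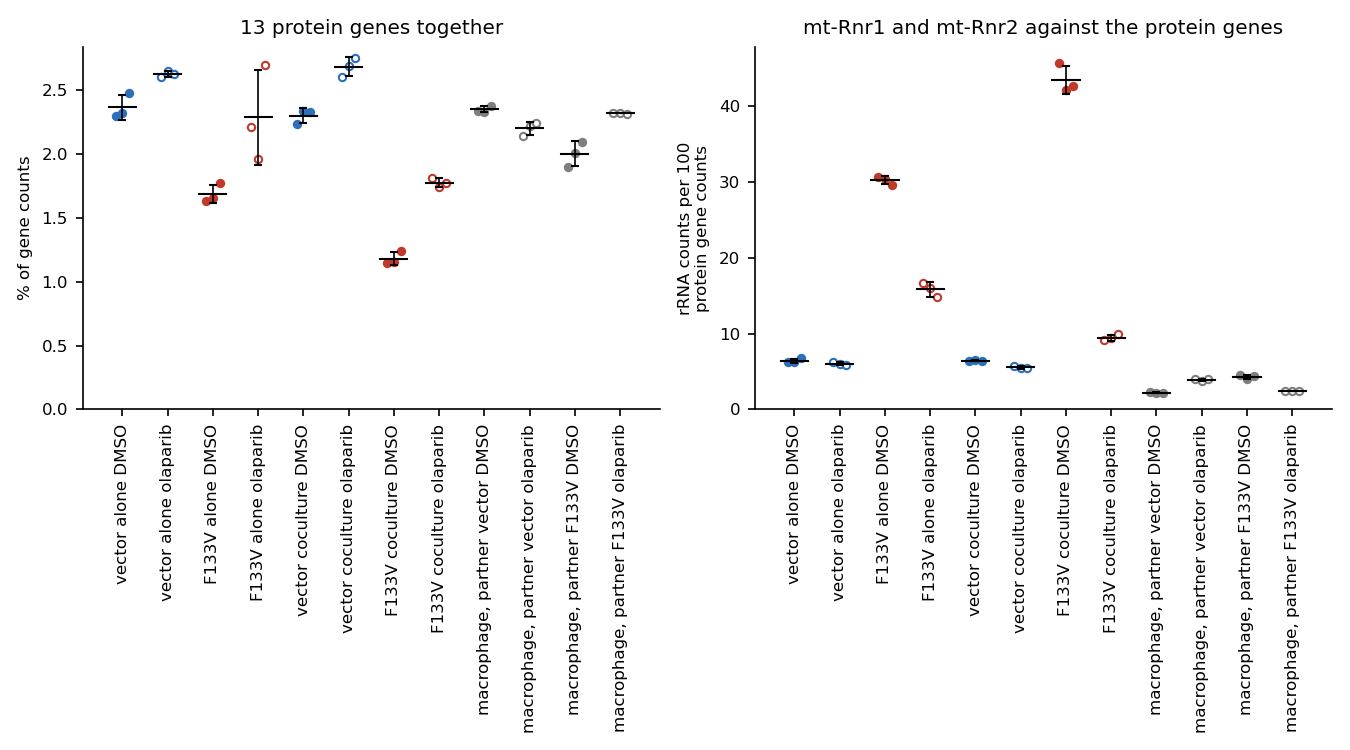
Left, the percentage of gene counts in the 13 protein genes, and right, the counts in the 2 rRNA genes per 100 counts in protein genes, per library (dots) with mean and SD of 3 libraries (black bars), coloured and filled as for the single genes. F133V cells in coculture with DMSO have the lowest protein gene share (1.18%) and the highest rRNA ratio (43.5).

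In the macrophages too, the rRNAs were higher and the protein genes lower opposite F133V cells than opposite vector cells. With DMSO, mt-Rnr1 was at 169, 156 and 163 CPM opposite vector cells and at 332, 275 and 353 CPM opposite F133V cells. mt-Rnr2 was at 362, 341 and 359.7 and 495, 494 and 543 CPM. Neither pair of groups overlapped, and the log2 fold changes were 0.97 ± 0.04 (adjusted p = 3.5e-26) and 0.53 ± 0.02 (adjusted p = 3.5e-25). Of the 19 members tested, 3 were called higher (the third being mt-Tp, 0.65) and 10 lower, where 53.6% of all genes were called (25.5% higher, 28.1% lower). All 10 lower ones were protein genes, of 12 tested, with mt-Nd4 at -0.54 ± 0.02, mt-Co1 at -0.30 ± 0.02, mt-Nd1 at -0.28 ± 0.03 and mt-Cytb at -0.24 ± 0.02. The median over the protein genes was -0.26 against -0.012 over all genes. mt-Nd5 (-0.12 ± 0.02) and mt-Nd6 (-0.25 ± 0.05) moved the same way here, and mt-Nd6, at 78.2, 92.1 and 87.6 CPM opposite vector and 71.3, 64.4 and 82.1 CPM opposite F133V cells, overlapped between groups.

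With olaparib the partner difference of the rRNAs was the reverse. mt-Rnr1 was at 389, 366 and 409 CPM opposite vector cells and 193, 191 and 188 CPM opposite F133V cells, and mt-Rnr2 at 503, 501 and 534 and 367, 378 and 372 CPM. The log2 fold changes were -1.02 ± 0.04 and -0.46 ± 0.02, and 3 members were called higher and 10 lower (35.2% of all genes, 17.6% higher and 17.6% lower). Seen by drug, olaparib raised the rRNAs in macrophages opposite vector cells (mt-Rnr1 1.25 ± 0.04, mt-Rnr2 0.53 ± 0.02) and lowered them opposite F133V cells (-0.74 ± 0.04 and -0.46 ± 0.02). Opposite vector cells 6 members were higher and 2 lower (28.4% of all genes called, 14% higher and 14.5% lower), or 5 and 4 with library size alone, the others including mt-Tp (1.31), mt-Tt (1.54), mt-Nd4 (-0.10) and mt-Nd5 (-0.15). Opposite F133V cells 8 were higher and 3 lower (57.5% of all genes called, 28.5% higher and 29% lower), or 6 and 4 with library size alone, led by mt-Nd4 (0.49 ± 0.02) and mt-Co1 (0.37 ± 0.02). Tested as an interaction of partner and olaparib, mt-Rnr1 had -2.0 and mt-Rnr2 -0.99, and 5 members were called positive and 5 negative (49.3% of all genes, 25.7% positive and 23.7% negative).

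mt-Nd5 was at 2279.9, 2302 and 2311 CPM opposite vector cells with DMSO and 2024, 2063 and 2119.6 with olaparib, and at 2022, 2094 and 2218 and 2315, 2321 and 2294 opposite F133V cells. Its share of protein gene counts was 8.97 ± 0.0801% to 11.0 ± 0.0339% over the 4 groups, and that of mt-Nd6 0.341 ± 0.0241% to 0.382 ± 0.0276%. The mt-Nd6 group means of the macrophages lay between 72.6 ± 8.91 and 88.2 ± 7.24 CPM. The other well-counted genes are given in the order DMSO and olaparib opposite vector cells, then DMSO and olaparib opposite F133V cells. mt-Co1 was at 11729 ± 86.6, 11572 ± 203, 9494 ± 447 and 12238 ± 16.8 CPM, mt-Cytb at 4564 ± 34.7, 4762 ± 97.5, 3871 ± 136 and 4369 ± 26.9. Within complex I, mt-Nd1 was at 1777 ± 50.8, 1732 ± 64.4, 1465 ± 112 and 1611 ± 17.6 CPM, mt-Nd2 at 1002 ± 28.4, 1111 ± 50.5, 883 ± 53.9 and 940.0 ± 4.31, and mt-Nd4 at 1827 ± 28.3, 1701 ± 20.6, 1254 ± 50.4 and 1759.8 ± 10.3. All 5 had their lowest mean opposite F133V cells with DMSO.

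Rn7sk moved with the rRNAs in the macrophages too. It was at 1.42, 1.70 and 1.93 CPM opposite vector cells and 6.15, 4.88 and 5.61 CPM opposite F133V cells with DMSO (1.72 ± 0.14), and its log2 fold changes for olaparib were 1.19 opposite vector and -1.28 opposite F133V cells. Of 3 such RNAs tested, 1 was called in the partner comparison with DMSO, 3 for olaparib opposite vector cells and 1 opposite F133V cells. Over all genes 53.6%, 28.4% and 57.5% were called in these comparisons. Summed snRNA genes were at 27.1 ± 1.86 and 26.2 ± 1.64 unscaled CPM opposite vector cells with DMSO and olaparib (SD, n = 3). Opposite F133V cells they were at 25.7 ± 1.99 and 25.7 ± 1.47, and so did not move with the rRNAs. In the same order, summed snoRNA genes were at 99.4 ± 0.267, 106 ± 0.696, 121 ± 0.751 and 96.4 ± 2.25. The part of Rn7sk in the rRNA result was not tested.

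Fitted together with all 36 libraries, macrophages and vector cancer cells from coculture with DMSO differed in the balance of their mitochondrial RNAs. Of the 24 members tested, 3 were called higher in macrophages (mt-Co1 0.48 ± 0.03, mt-Nd5 0.44 ± 0.07 and mt-Co2 0.26 ± 0.09) and 11 lower, where 82.2% of all genes were called (39.8% higher, 42.4% lower). The lower ones included mt-Rnr1 (-1.27 ± 0.06), mt-Rnr2 (-1.48 ± 0.05), mt-Nd2 (-1.02 ± 0.08), mt-Nd6 (-0.78 ± 0.11) and mt-Nd1 (-0.62 ± 0.06). mt-Cytb (-0.02 ± 0.04) and mt-Nd4 (0.09 ± 0.05) did not pass the test. The protein genes together took 2.35 ± 0.0234% of gene counts in the macrophages and 2.30 ± 0.0589% in the cancer cells, which is close, while rRNA counts per 100 protein gene counts were 2.22 ± 0.0699 and 6.44 ± 0.109.

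Nuclear genes that make or handle mitochondrial RNA changed in both directions in F133V against vector cells in coculture with DMSO. Over all genes 79.5% were called (37.4% higher, 42% lower), and most of the counts that follow are near that share. Of 10 genes for mitochondrial transcription, 2 were higher and 6 lower, among them Mterf3, which restrains transcription (0.87), and Mterf2 (-1.79) and Tfb1m, a methyltransferase of the 12S rRNA (-1.96). Of 21 genes for RNA processing and stability, 8 were higher and 10 lower. Trmt10c, a subunit of the mitochondrial RNase P that cuts at tRNA ends (1.45), and Lrpprc, which stabilizes mitochondrial messages (0.87), were higher, and Fastk, which is known to act on mt-Nd6 RNA (-1.26), was lower. Of 7 regulators of biogenesis, 5 were higher and 2 lower, the coactivators Ppargc1a (1.67) and Pprc1 (1.49) and the factor Nrf1 (1.25) being among the higher. For DNA upkeep the counts were 5 higher and 6 lower of 14, with the nucleoside kinases Dguok (-1.56) and Tk2 (-1.02) lower and the polymerase Polg higher (0.42). For assembly of the mitoribosomal rRNAs they were 3 and 4 of 8, with Mpv17l2 (-1.56) and the 16S rRNA methyltransferase Mrm1 (-0.82) lower. Mitoribosomal proteins were 18 higher and 44 lower of 76, with a median of -0.19, for instance Mrpl54 (-1.47), Mrpl10 (-1.15) and Mrps30 (1.12).

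In cells alone with DMSO the mitoribosomal proteins were 45 higher and 14 lower of 76 (median 0.17), led by Mrps18a (0.73), Mrpl43 (0.70) and Mrpl35 (0.83), where 67.7% of all genes were called (33.7% higher, 34% lower). More were thus called higher than lower alone and the reverse in coculture, while the rRNAs they bind were higher in both settings. The difference between the settings was not tested for this list. Biogenesis regulators were 4 higher and 2 lower of 7 (Ppargc1a 1.08, Pprc1 0.39, Ppargc1b -1.42). RNA processing genes were 11 higher and 5 lower of 21, with Pde12, which trims poly(A) tails of mitochondrial RNA (0.50), Fastkd2, needed for the 16S rRNA (0.38), and the RNA granule protein Grsf1 (0.30) all higher. Transcription genes were 2 higher and 4 lower of 10 (Mterf3 0.58, Tfb2m -0.57, Tfb1m -0.79), DNA upkeep genes 3 and 4 of 14 (Polg 0.25), and rRNA assembly genes 2 and 3 of 8 (the rRNA methyltransferase Nsun4 -0.64 and the 12S rRNA chaperone Eral1 0.43).

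For olaparib in F133V cells in coculture, where 76.3% of all genes were called (39.3% higher, 37% lower), biogenesis regulators were 0 higher and 5 lower of 7, with Pprc1 at -1.38, Ppargc1a at -1.54 and Nrf1 at -0.82. RNA processing genes were 5 higher and 10 lower of 21, with Fastk at 1.34, Trmt10c at -1.52 and Lrpprc at -0.83. Transcription genes were 4 and 2 of 10 (the elongation factor Tefm 1.00, Mterf3 -0.56, Polrmt -0.38), DNA upkeep genes 6 and 5 of 14 (Dguok 1.76), rRNA assembly genes 4 and 2 of 8 (Mpv17l2 1.15) and mitoribosomal proteins 38 and 24 of 76 (Mrpl10 1.11, Mrps30 -0.97, Mrpl9 -0.91).

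In macrophages opposite F133V against vector cells with DMSO, 53.6% of all genes were called (25.5% higher, 28.1% lower). Mitoribosomal proteins were 41 higher and 8 lower of 76 (Mrpl19 0.41, Mrps6 0.50, Mrps27 0.47). The transcription genes Tfam (0.32), Tfb1m (0.49) and Polrmt (0.18) were higher and 0 of 10 lower, and RNA processing genes were 10 higher and 3 lower of 21 (Rexo2 0.33, Grsf1 -0.30). DNA upkeep genes were 6 and 2 of 14, biogenesis regulators 0 and 1 of 6, and rRNA assembly genes 3 and 2 of 8. For olaparib opposite F133V cells, where 57.5% of all genes were called (28.5% higher, 29% lower), mitoribosomal proteins were 6 higher and 52 lower of 76, transcription genes 0 and 4 (Tfam -0.35, Polrmt -0.27) and RNA processing genes 2 and 14 (Rexo2 -0.34, Lrpprc -0.19). There the DNA upkeep genes were 5 and 4, the biogenesis regulators 1 and 3 and the rRNA assembly genes 1 and 1. For olaparib opposite vector cells, where 28.4% of all genes were called (14% higher, 14.5% lower), mitoribosomal proteins were 5 higher and 2 lower, transcription genes 1 and 1, RNA processing genes 1 and 2, DNA upkeep genes 3 and 1, biogenesis regulators 1 and 2 and rRNA assembly genes 0 and 0. In the same comparison both rRNAs rose, by 1.25 and 0.53, and the mitoribosomal proteins had a median of 0.010.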

How the data were processed

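Total RNA of 36 libraries was extracted with TRIzol and prepared with a standard Illumina protocol, per the labels' protocols. The authors deposited raw read counts per gene, 1 file per library, with 5 HTSeq summary lines that are no genes and were left out of library sizes (17.15% to 21.51% of reads in no gene, 1.2% to 1.36% ambiguous and 5.48% to 7.18% not unique). STAR, TopHat, HTSeq, DESeq2 and GRCm38 are named in the submitters' processing notes, and no source used here gives versions, roles or the strand setting. Reads that aligned to several places were counted to no gene; what this took from each gene was not tested.

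Groups came from the titles of the libraries, except that macrophages opposite vector cells with olaparib were assigned by the group entry of the labels. The genotype entry of the macrophages was not used, since it disagrees between groups of the same partner. Cancer cells (24 libraries, 8 groups, 16 residual degrees of freedom), macrophages (12, 4 and 8) and all 36 libraries, the last for the comparison of cell types only, were fitted separately in edgeR 4.0.16 (R 4.3.3) by the quasi-likelihood F test after TMM scaling, with low genes left out by filterByExpr (minimum count 10) and p adjusted over all genes tested. The SE is the log2 fold change over the square root of F. Scripts were tested on simulated data. With known changes built into F133V against vector cells alone and the macrophage partner comparison, both with DMSO, 6.45% and 7.61% of calls were false. Of 1.2-fold changes, 66% and 72% were called. Only 50 genes were changed at each of the folds 1.2, 1.5, 2 and 3, out of 15773 and 14118. In the real comparisons 67.7% and 53.6% of all genes were called, so these rates may not carry over. There were 17 comparisons of 2 groups and 5 interactions. Alternatives were DESeq2 1.42.0, RLE scaling, library size alone, scaling on nuclear protein-coding genes or on mitochondrial messages, no filter, only the groups compared, a replicate block, leaving out each library and, chosen after seeing the data, leaving out 2 pairs of libraries. Sums were compared by exact permutation tests. Intervals of single counts cover counting error only and are not given. Sequences and positions came from GENCODE M21 (GRCm38), searched with Biopython 1.88, and figures from matplotlib 3.10.9 in Python 3.11.15.

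The members and lists were chosen with earlier results of these data known. All protein and rRNA genes are named, with per-library values for both rRNAs and for the protein genes highest and lowest in F133V against vector cells and in olaparib against DMSO, in coculture, and up to 3 members per nuclear list with the smallest adjusted p.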

Additional observations from a re-analysis of the deposited data

Results flagged for a closer look

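The effect of one factor differed with the level of another for many of these genes, by interaction terms in edgeR's quasi-likelihood test (adjusted p under 0.05). Values are differences of log2 fold changes. No explanation was tested.

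The response to olaparib differed between F133V and vector cells alone for 5 members (24.2% of all genes were called): mt-Rnr1 (-0.48) and mt-Rnr2 (-0.72) responded lower in F133V cells, and mt-Co1 (0.19), mt-Nd3 (1.40) and mt-Nd5 (0.31) higher. Without libraries 1 and 3 of the F133V cells with olaparib, 0 members were called positive and 3 negative: mt-Rnr1 (-0.63), mt-Rnr2 (-0.93) and mt-Nd6 (-0.61). There mt-Co1 (0.048), mt-Nd3 (0.55) and mt-Nd5 (-0.083) did not pass the test. Leaving out library 2 of that group gave 11 members, and leaving out its library 3, library 1 of the F133V cells alone with DMSO or library 2 of the vector cells alone with olaparib gave 3.

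In coculture, the response to olaparib differed for 10 members (67.4% of all genes). It was lower in F133V cells for mt-Rnr1 (-1.11), mt-Rnr2 (-2.01), mt-Nd6 (-1.14) and mt-Tt (-1.96), and higher for mt-Nd5 (0.92), mt-Co3 (0.52), mt-Nd2 (0.35), mt-Nd4 (0.35), mt-Nd1 (0.21) and mt-Cytb (0.16). Without library 1 of the F133V coculture with DMSO 6 members were called.

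Coculture with DMSO acted differently on F133V and vector cells for 9 members (62.7% of all genes). mt-Nd5 had -1.43, mt-Nd4 -0.61, mt-Nd2 -0.39, mt-Nd1 -0.39 and mt-Cytb -0.26, while mt-Nd6 had 0.74, mt-Atp6 0.77, mt-Tt 1.55 and mt-Rnr2 0.20. mt-Rnr2 lost the call with library size alone (0.034, adjusted p = 0.72), without library 3 of the vector cells alone with DMSO (0.11, adjusted p = 0.15) and without library 1 of their coculture with DMSO (0.15, adjusted p = 0.078). mt-Nd2 lost it with DESeq2 (adjusted p = 0.089) and without the 2 vector libraries that hold macrophage transcripts (-0.27, adjusted p = 0.14). Scaling by library size alone gave 2 positive and 6 negative calls in place of 4 and 5.

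Within F133V cells, the response to olaparib differed between coculture and growth alone for 10 members (64.5% of all genes): mt-Rnr1 (-0.65), mt-Rnr2 (-1.41), mt-Nd6 (-1.40), mt-Co2 (-0.31), mt-Atp6 (-1.70), mt-Atp8 (-4.66), mt-Ti (-6.40) and mt-Tq (-1.38) had lower values in coculture, and mt-Nd5 (0.61) and mt-Nd4 (0.21) higher ones. mt-Ti and mt-Atp8 had 0.31 and 0.65 without libraries 1 and 3 of F133V cells alone with olaparib. These libraries were picked by their counts of the same 2 genes, so the direction of that shift was fixed in advance.

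In the macrophages, the response to olaparib differed with the partner for 10 members (49.3% of all genes). Opposite F133V cells it was lower for mt-Rnr1 (-2.0), mt-Rnr2 (-0.99), mt-Tq (-1.58), mt-Tp (-1.51) and mt-Co3 (-0.57), and higher for mt-Nd4 (0.59), mt-Co1 (0.39), mt-Nd5 (0.28), mt-Nd1 (0.17) and mt-Cytb (0.11). For mt-Rnr1 and mt-Rnr2 all 3 olaparib libraries lay above the DMSO libraries opposite vector cells and below them opposite F133V cells.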

How the results depend on the processing

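Of the counts of called members under all alternatives, 296 stayed within 1.5 times and 30 did not. DESeq2 called 6 in place of 15 for olaparib in vector cells alone, 1 in place of 2 and 5 in place of 10 for coculture of vector cells with DMSO and with olaparib, 3 in place of 5 and 6 in place of 10 for the interactions of genotype and olaparib alone and in coculture, and 7 in place of 11 for olaparib in macrophages opposite F133V cells. With no filter, olaparib in vector coculture and coculture of vector cells with DMSO each gave 8 (4 and 2), and genotype by olaparib alone gave 10. With only the groups compared in the fit these were 8 and 5, and coculture of vector cells with olaparib gave 18 in place of 10. Library size alone gave 10 in place of 5 for genotype by olaparib alone (8 positive and 2 negative in place of 3 and 2).

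Leaving out 1 library gave 8 to 15 members for olaparib in vector cells alone, 1 to 4 and 4 to 8 for coculture of vector cells with DMSO and with olaparib, 3 to 11 for genotype by olaparib alone and 6 to 10 for it in coculture. Where a group was left with 1 library, that library was assumed to vary like the other groups. Without the 2 vector libraries that hold macrophage transcripts, olaparib in vector cells alone gave 1. Without the 2 F133V olaparib libraries that stand apart, olaparib in F133V cells alone gave 7, coculture of F133V cells with olaparib 6 and genotype by olaparib alone 3. Signs then turned for mt-Ti (-5.93), mt-Atp8 (-4.72) and mt-Nd5 (-0.15) in F133V against vector cells alone with olaparib, for mt-Ti (-2.73), mt-Atp8 (-2.22) and mt-Nd6 (-0.17) for olaparib in F133V cells alone, for mt-Nd1 (0.015), mt-Ti (3.43), mt-Nd2 (0.064), mt-Tw (0.11), mt-Atp8 (1.73), mt-Atp6 (0.23) and mt-Nd3 (0.046) in coculture against alone, for mt-Nd5 (-0.083) in genotype by olaparib, and for mt-Ti (0.31), mt-Atp8 (0.65) and mt-Co3 (0.55) in coculture by olaparib. These rest on fewer libraries. For mt-Ti and mt-Atp8 the direction of the shift was fixed in advance, since the libraries were picked by their counts of these genes.

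With library size alone, the rRNAs and well-counted protein genes except mt-Nd6 moved by a median of over 0.1 in 6 cancer cell contrasts. The medians were -0.25 in F133V against vector coculture with DMSO, 0.21 for olaparib in F133V coculture and -0.21 for coculture of F133V cells with DMSO. In 3 interactions they were 0.20, -0.16 and 0.13. Library size alone turned mt-Rnr1 in coculture of F133V cells with DMSO (-0.18) and mt-Cytb for olaparib in macrophages opposite vector cells (-0.018). With nuclear protein-coding counts as the total, log2 ratios of the protein gene share became 0.030 from 0.077 for the macrophage partner with olaparib, -0.050 from -0.095 for olaparib opposite vector cells and -0.0010 from 0.032 for macrophages against cancer cells, and that of the rRNA share became -0.66 from -0.62 for the partner with olaparib. Where no cause is named, it was not tested.

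The replicate numbers gave no sign of pairing libraries. Of 84 same-numbered pairs in the cancer cells and 18 in the macrophages, 0 had a correlation of deviations over 0.1 (-0.047 to 0.058 and -0.017 to 0.036). The labels do not say what a number shares, and low correlations cannot show that it shares nothing. With the replicate block, the counts of called members were 15 in place of 16 for F133V against vector alone and 17 in place of 17 in coculture with DMSO, and all 22 stayed within 1.5 times. Depth limits the 6 protein genes with a median of 6.5 to 469.5 counts and all tRNA genes.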
